A study of Caenorhabditis elegans with 25 samples.

Results

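Loss of the neuropeptide receptor EGL-6 was examined in Caenorhabditis elegans as 1 effect averaged over 2 genetic backgrounds, with 10 receptor-mutant libraries set against 10 receptor-intact libraries. These 20 libraries were chosen by genotype from the 25 of the series. The first background held N2, the wild type, and the single mutant egl-6(n4537)X (strain AEF236, called egl-6(lof) here). The second held strain AEF148 (flp-17oe), which carries the extrachromosomal array ssrEx1193 with flp-17p::flp-17::GFP and the muscle marker myo-3p:mCherry, and strain AEF237 (flp-17oe egl-6(lof)), which has the array together with egl-6(n4537)X and is also called the double strain. Each genotype had 5 replicates, and 5 libraries of a flp-17 mutant stood outside the comparison. Poly(A) RNA came from whole animals on day 1 of adulthood, 500 to 600 per sample, fed OP50-1 bacteria on NGM plates, and the mutant and array strains had been outcrossed 6 times to N2. An extrachromosomal array is not passed to every offspring, so array animals were sorted by their fluorescent marker 24 h before collection while the others were washed and replated. Handling therefore differed between the backgrounds and was the same on both sides of each receptor comparison. Both mutant genotypes carry the same allele, so loss of the receptor and any variant that travelled with it cannot be told apart.

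FLP-17 is an FMRFamide-like neuropeptide made by the BAG neurons, a pair of sensory cells in the head that respond to oxygen and carbon dioxide. EGL-6 is a G protein-coupled receptor for it on the HSN motor neurons, where its signal passes through an inhibitory G protein and slows egg laying. The array supplies extra ligand under the flp-17 promoter, so the design asks what receptor loss changes in the RNA of whole adults at normal and at raised ligand levels.

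Total counts ran from 38300495 to 76965846 per library over the 20. Replicate 1 of every genotype was labelled batch 1 and replicates 2 to 5 batch 2. The share of counts from rRNA genes was 0.276% to 3.12%, with replicates 1 and 2 of each genotype and N2 replicate 3 all at 1.62% or more and the other libraries at 0.619% or less. The first principal component carried 47.7% of the variance, and on it N2 replicate 1 lay at -61.8 while the other N2 libraries lay between -8.17 and 13.7. The egl-6(lof) libraries lay between -58.5 and -27.7, and replicate 1 of flp-17oe (-28.5) and of the double strain (-11.96) stood apart from the others of their genotype, at 30.4 or more. Markers of intestine, body wall muscle, neurons, germline and hypodermis were all detected at a mean log2 CPM of at least 1.34 (CPM, counts per 1000000, on TMM-scaled library sizes), and none of these passed the test. Of a short set of 8 male markers only cwp-4, klp-6 and mab-3 had enough counts to be tested, at mean log2 CPM of -1.06 to -1.68, and none passed. In RNA from whole animals, fewer cells of a type and less RNA per cell cannot be told apart.

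Receptor loss changed few genes, and most of those called from all 20 libraries rose. Of 14540 genes tested, 162 passed an adjusted p under 0.05, which is 1.11% of all genes, with 147 higher (1.01%) and 15 lower (0.103%) in the receptor mutants. An unadjusted p under 0.05 was reached by 1757, of which 1279 were higher and 478 lower. The median change was a log2 change of 0.67 among the rises and -0.49 among the falls, and 26 rises and 2 falls exceeded 2-fold. All 162 had the same direction in each background, which averaging favours. In the separate comparisons 22 of the 162 passed in both backgrounds, 15 only without the array, 71 only with it and 54 in neither. No minimum fold was set, and 63 of the 162 (60 rises, 3 falls) lay below a mean log2 CPM of 1. The count moved with the libraries used. It was 26 without replicate 3 and 642 (378 higher, 264 lower) without replicate 2, lay between 90 (without flp-17oe replicate 5) and 315 (without N2 replicate 1) when any 1 library was left out, and came to 1128 (829 higher, 299 lower) from replicates 3 to 5 alone. With replicates 1 and 2 alone edgeR called 0, with 170 at an unadjusted p under 0.05. Those are the replicates with the higher rRNA share, whose part in the counts was not tested.

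Taken one background at a time, receptor loss changed 108 genes without the array (0.743% of all), 99 higher (0.681%) and 9 lower (0.0619%), and 228 with it (1.57%), 194 higher (1.33%) and 34 lower (0.234%). Only 23 genes passed in both, which is 21.3% of the first list and 10.1% of the second, and 22 of them had the same sign. Of the 108, only 56 (51.9%) had the same sign with the array. Of the 228, 206 (90.4%) had the same sign without it. Over all genes tested the sign was shared by 54.7%, and the 2 changes correlated at a Pearson r of -0.155 and a Spearman rho of 0.119. With each background fitted on its own 10 libraries, without the shared estimate of the spread, the counts were 39 and 125. Over the 13390 genes tested in both of these fits, the Pearson r was 0.180 and the Spearman rho 0.181, with the sign shared by 54.9%. Of 36 such genes called without the array, 29 (80.6%) had the same sign with it. Of 122 called with the array, 112 (91.8%) had the same sign without it. The sign of the Pearson r and the agreement of the calls without the array thus depended on the fit. Libraries of the 2 array strains with the same replicate number deviated together, and within those 10 libraries a replicate block left 27 calls. With the block in all 20 libraries, 140 of the 162 averaged calls were shared and 22 were lost. The count without the array was the less stable, at 35 to 735 over single libraries left out, with 735 when egl-6(lof) replicate 1 was left out, against 81 (without flp-17oe replicate 3) to 296 with the array.

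**Figure D1:**
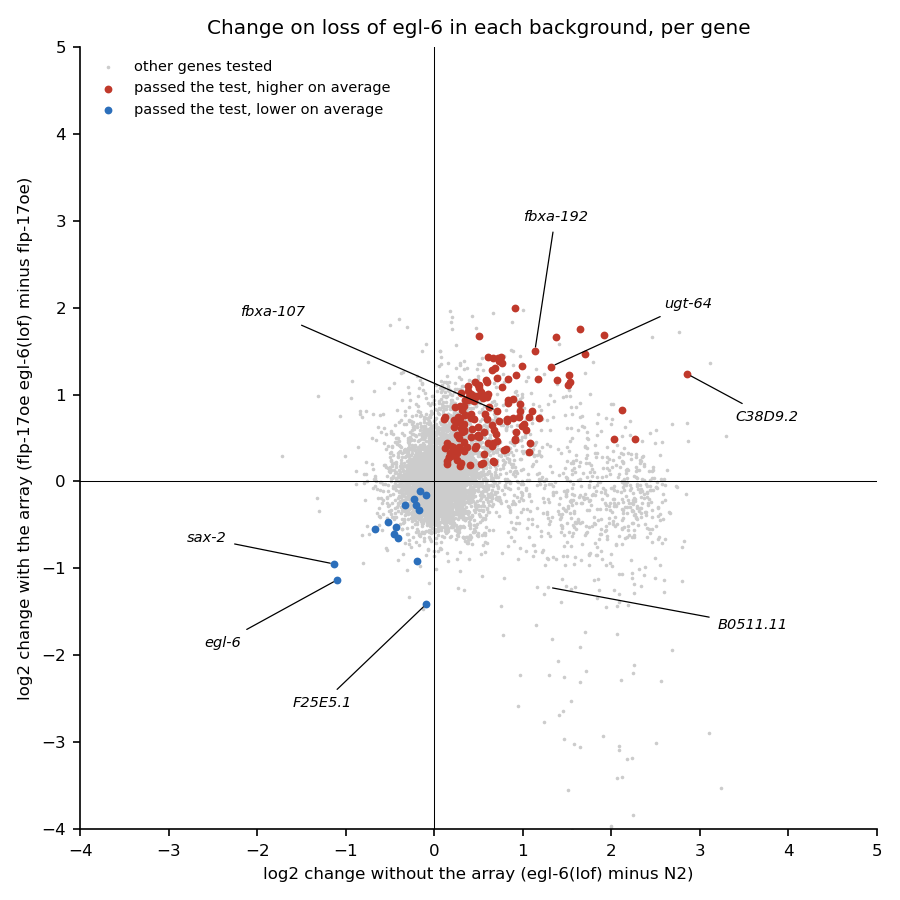
Log2 change on receptor loss without the array (horizontal) and with it (vertical), 1 point per gene tested, with called rises in red, called falls in blue and other genes in grey. The called genes lie to the upper right or lower left; B0511.11 lies in the lower right at 1.29 and -1.22, F25E5.1 lies near 0 on the horizontal axis, and 26 genes, none of them called, fall outside the axes.

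The receptor transcript itself came first as a check of the labels. The gene egl-6 (X:5931122-5934532, WBcel235, which is ce11) measured 5.39, 5.6, 6.44, 6.91 and 5.82 CPM in N2 and 2.38, 2.25, 3.03, 3.45 and 2.94 CPM in egl-6(lof). In the array background it measured 6.39, 5.43, 6.6, 7.54 and 5.66 CPM in flp-17oe, against 3.33, 3.01, 2.94, 2.9 and 2.28 CPM in flp-17oe egl-6(lof). Every mutant library lay below every receptor-intact one, at 2.25 to 3.45 against 5.39 to 7.54 CPM. The log2 change was -1.12 ± 0.09 (SE, adjusted p = 1.67e-07), a mean ratio of 0.462, and close to the same in each background (-1.10 and -1.13). The mutants thus kept a measurable egl-6 signal, and counts per gene do not show which part of the gene it came from.

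The ligand gene flp-17 (IV:17190204-17191891) was far higher with the array, and its change on receptor loss did not pass. It stood at 4.62 ± 0.459 CPM (SD, n = 5) in N2 and 4.64 ± 0.233 CPM in egl-6(lof). With the array it stood at 188 ± 27 CPM where the receptor was intact and 232 ± 29.4 CPM where it was lost. Its averaged log2 change was 0.18 ± 0.07 (SE, adjusted p = 0.334), and with the array alone it was 0.30 with an adjusted p of 0.116, so neither passed. The unadjusted edgeR p was 0.0256 for the average and 0.00338 with the array. Equal ligand transcript in the 2 array strains is therefore not shown. Of the 22 tested genes of FLP-17 and EGL-6 signalling, which include the G protein subunits and potassium channel of this pathway and the guanylate cyclases of BAG, egl-6 was the only one that passed. None of 32 genes of the egg-laying circuit, which cover HSN serotonin synthesis, vulval muscle receptors and cell fate regulators, passed under edgeR or DESeq2. At an unadjusted p under 0.05 edgeR found 1 higher and 1 lower among them, egl-46, a zinc finger regulator of HSN development, at 0.76, and cat-4, the GTP cyclohydrolase for serotonin and dopamine synthesis, at -0.13 on the log2 scale.

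Besides egl-6, the largest fall by fold among the called genes was in sax-2 (III:5109701-5130676), the Furry homologue that limits neurite growth and branching in worm sensory neurons. It measured 167, 124, 205, 171 and 162 CPM in N2 and 74, 78.8, 67.5, 73.5 and 83.1 CPM in egl-6(lof). With the array it measured 174, 132, 161, 151 and 159 CPM in flp-17oe, against 56.3, 83.9, 77.7, 86.6 and 104 CPM in flp-17oe egl-6(lof). The highest mutant library lay below the lowest receptor-intact one in the 10 against 10 comparison. The log2 change was -1.04 ± 0.09 (SE, adjusted p = 8.68e-07), a ratio of 0.488, with -1.13 without the array and -0.95 with it. Leaving out any single library kept it between -1.09 and -0.99. It was the only 1 of 32 tested genes of neurite growth and microtubules that passed (3.13%, beside 0.103% of all genes lower), with a median log2 change of -0.03 in that list.

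F56B3.2 (IV:764061-768584) and F28F8.7 (V:15578707-15590617) also separated all 10 mutant from all 10 intact libraries. F56B3.2 ranged over 7.95 to 10.4 CPM in the mutants and 12 to 14.7 CPM in the others, a log2 change of -0.61 ± 0.05 (SE, adjusted p = 5.26e-07). F28F8.7 ranged over 7.11 to 8.87 and 9.69 to 12.5 CPM, a log2 change of -0.48 ± 0.05 (SE, adjusted p = 1.17e-05). In all, 20 of the 14540 genes had no overlap between the 10 libraries of either receptor state, 0.138% of those tested, 16 higher and 4 lower. The 4 lower are egl-6, sax-2, F56B3.2 and F28F8.7. Of the 20, 19 passed the test, and the F-box gene fbxb-18 did not (adjusted p = 0.0724). Asking only for separation within each background, in the same direction, gave 38 genes (0.261%), against 213 (1.46%) without the array and 333 (2.29%) with it in either direction.

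The rise with the smallest adjusted p was in fbxa-192 (V:17640672-17650527), which encodes an F-box protein of the family that brings substrates to SCF ubiquitin ligases. It measured 13, 12, 10.5, 10.9 and 10.2 CPM in N2 and 24.7, 23.6, 25.7, 24.5 and 25.5 CPM in egl-6(lof). With the array it measured 7.98, 9.79, 10.3, 8.88 and 9.95 CPM in flp-17oe, against 26.2, 29.4, 28.6, 23.9 and 25.3 CPM in flp-17oe egl-6(lof). All mutant libraries lay above all intact ones with a wide gap, 23.6 to 29.4 against 7.98 to 13 CPM. The log2 change was 1.32 ± 0.07 (SE, adjusted p = 3.16e-10), a ratio of 2.49.

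The gene ugt-64 (V:3503080-3506352), a UDP-glucuronosyltransferase of the family that conjugates small lipophilic compounds with sugars, rose by nearly the same amount. It measured 20.6, 31.1, 25.5, 22.1 and 21.4 CPM in N2 and 66.7, 63.5, 59.4, 58 and 54.1 CPM in egl-6(lof). In the array strains it measured 22, 30.4, 24.8, 22.3 and 20.4 CPM in flp-17oe, against 70.1, 60.2, 61.5, 56 and 53.5 CPM in flp-17oe egl-6(lof). The mutant and intact libraries did not overlap, while within each receptor state the ranges with and without the array did. The log2 change was 1.32 ± 0.08 (SE, adjusted p = 6.75e-09), at 1.32 without the array and 1.32 with it.

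A second F-box gene, fbxa-107 (V:18123939-18125235), rose less but as evenly. It measured 4.53, 5.28, 5.58, 5.67 and 5.06 CPM in N2 and 8.1, 8.9, 8.49, 8.53 and 8.51 CPM in egl-6(lof). The array strains measured 5.46, 5.26, 6.44, 5.88 and 5.9 CPM in flp-17oe, against 10.8, 10.2, 10.1, 10.5 and 9.39 CPM in flp-17oe egl-6(lof). The lowest mutant library stood above the highest intact one, with a log2 change of 0.76 ± 0.05 (SE, adjusted p = 1.18e-08) and a ratio of 1.7. Y102A5C.36 (V:16926922-16927445) followed the same pattern at 8.67 to 14.4 CPM in the mutants and 4.74 to 7.01 CPM in the others, a log2 change of 0.93 ± 0.09 (SE, adjusted p = 1.52e-06).

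**Figure D2:**
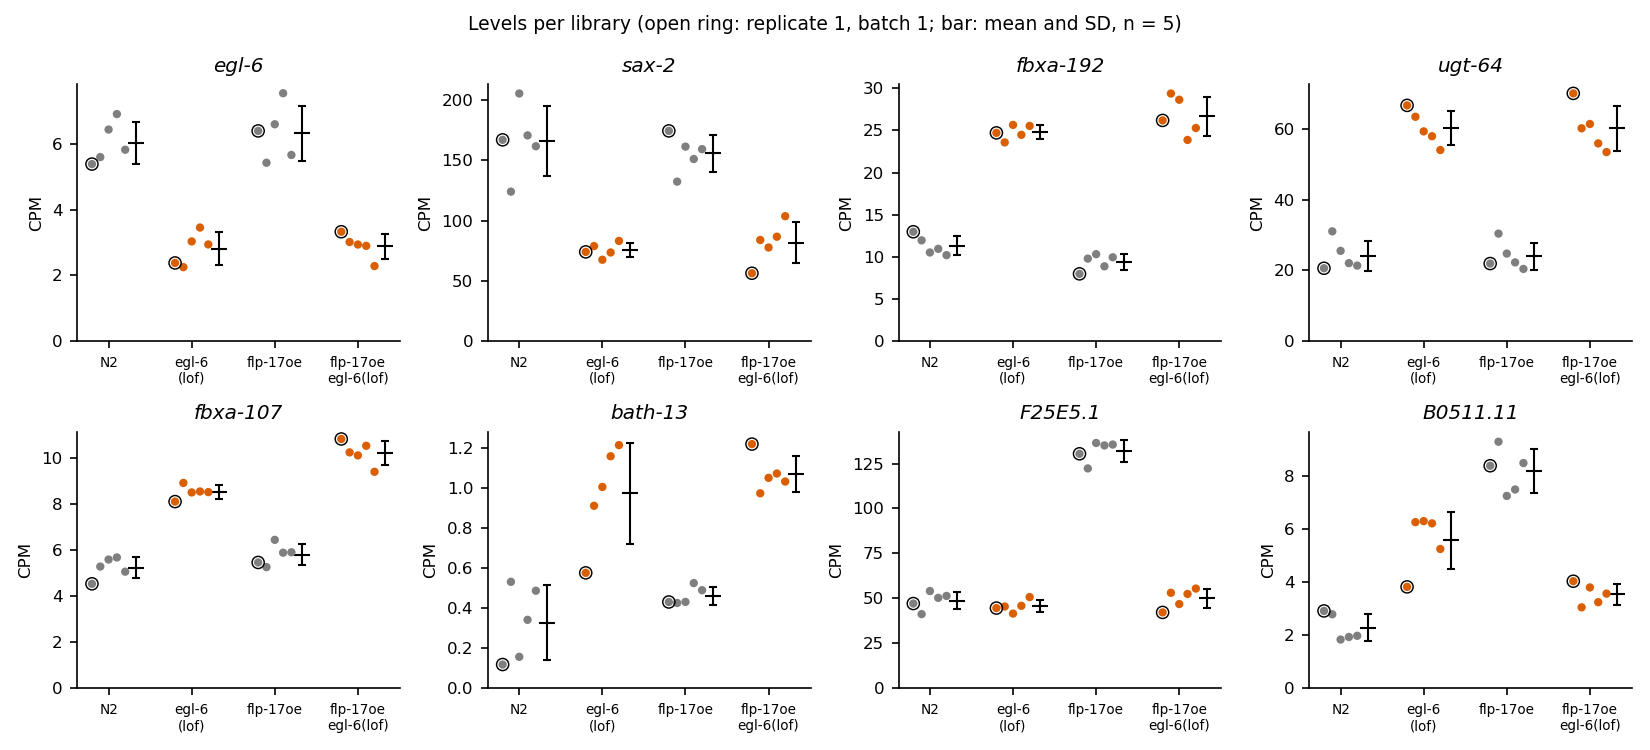
CPM in each library (points) for egl-6, sax-2, fbxa-192, ugt-64, fbxa-107, bath-13, F25E5.1 and B0511.11 in the 4 genotypes, with mean and SD (n = 5); orange marks receptor mutants and open rings mark replicate 1, which is batch 1. The first 6 genes separate mutant from intact libraries in both backgrounds, while F25E5.1 is high in flp-17oe alone and B0511.11 goes up without the array and down with it.

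Among the 12 largest rises at or above 1 in mean log2 CPM, the other genes were more variable. The next was pud-4 (V:2326678-2327282), of a small nematode protein family found raised in insulin receptor mutants, with 1.99 at the lowest, 19.1 at the median and 42.5 at the highest CPM in the mutants. Its intact libraries measured 2.96 at the lowest, 5.62 at the median and 14.5 at the highest CPM, so the groups overlapped, and the log2 change was 1.27 ± 0.27 (SE, adjusted p = 0.0207). The bZIP transcription factor gene zip-8 (III:6478955-6481243) measured 3.01 at the lowest, 3.41 at the median and 7.4 at the highest CPM in the mutants and 0.722 at the lowest, 2.18 at the median and 3.16 at the highest CPM in the intact libraries, a log2 change of 1.06 ± 0.22 (SE, adjusted p = 0.0204). Both lost the call without flp-17oe replicate 3 or without flp-17oe replicate 5 (highest adjusted p 0.0564).

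F46E10.2 (V:6520435-6521021) separated the groups, with 2.39 to 5.32 CPM in the mutants and 0.83 to 2.17 CPM in the others, a log2 change of 0.97 ± 0.16 (SE, adjusted p = 0.0026). Y82E9BR.17 (III:1447494-1455774) rose from 1.82 ± 0.581 to 3.68 ± 1.14 CPM (SD, n = 10), a log2 change of 1.01 ± 0.18 (SE, adjusted p = 0.00605). T22B7.7 (X:5651865-5654074) rose from 8.69 ± 1.73 to 16.1 ± 5.49 CPM, a log2 change of 0.84 ± 0.15 (SE, adjusted p = 0.00605). These 3 kept the call in each fit that left out a single library. The gene drd-50 (IV:4117732-4119179), named for its response to dietary restriction, rose by 0.93 ± 0.19 (SE, adjusted p = 0.0157) on the log2 scale, and arrd-1 (II:627505-628658), which encodes an arrestin-domain protein, rose by 0.80 ± 0.17 (SE, adjusted p = 0.0218). The call for arrd-1 was lost without N2 replicate 4 or 5 or flp-17oe replicate 3 or 5 (highest adjusted p 0.0609). The lectin genes clec-196 and clec-266 complete the 12 and are described with their family.

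The largest fitted rises lay below that level and were picked out here after their values were seen. C38D9.2 (V:17567150-17571742) was at 0.205 ± 0.0659, 1.56 ± 0.713, 0.45 ± 0.17 and 1.14 ± 0.318 CPM in N2, egl-6(lof), flp-17oe and the double strain in that order, a log2 change of 1.98 ± 0.31 (SE, adjusted p = 0.00181). C08F11.7 (IV:13637275-13638666) ranged over 0.966 to 2.23 CPM in the mutants and 0.214 to 0.707 CPM in the others, a log2 change of 1.58 ± 0.12 (SE, adjusted p = 8.60e-08). C07G3.8 (V:3498103-3502138), whose coordinates end shortly before those of ugt-64, rose by 1.70 ± 0.30 (SE, adjusted p = 0.00615) at a mean log2 CPM of only -2.37. C07G3.8 and ugt-64 lie on the same strand, and the sources used here do not say how reads were assigned to genes. Reads of neighbouring or near-identical genes may therefore be shared between them.

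The remaining falls were small or came from one background. The gene wago-11 (II:3603387-3607386), named for a clade of Argonautes and annotated as a pseudogene, fell by 0.30 on the log2 scale and rrf-2 (I:12098664-12106112), which encodes an RNA-dependent RNA polymerase, fell by 0.24 (adjusted p = 0.037 and 0.0262). The acyl-CoA synthetase-like gene sur-5 (X:7301389-7305570) changed by -0.25 ± 0.06 (SE, adjusted p = 0.0428), M57.1 (IV:3532467-3539065) by -0.21 ± 0.04 (SE, adjusted p = 0.0189) and the protein disulfide isomerase gene pdi-6 (X:7066342-7068563) by -0.14 ± 0.03 (SE, adjusted p = 0.0475). The aspartate aminotransferase gene got-2.2 (X:6240983-6242709) changed by -0.13 ± 0.03 (SE, adjusted p = 0.0157). Several of these calls were near the threshold. Leaving out 1 library ended the call for pdi-6 in 16 of 20 cases, for sur-5 and wago-11 in 12 each and for rrf-2 in 5, and for M57.1 and got-2.2 in none. With a replicate block the adjusted p of wago-11 was 0.0514.

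F25E5.1 (V:7465884-7471288) passed in the average while differing between the backgrounds. It measured 47.1, 41.3, 54.1, 50.3 and 51.4 CPM in N2 and 44.6, 45.5, 41.6, 45.9 and 50.7 CPM in egl-6(lof). The array strains measured 130.4, 122, 136, 135 and 136 CPM in flp-17oe, against 42.2, 53.1, 46.9, 52.5 and 55.5 CPM in flp-17oe egl-6(lof). Only the flp-17oe libraries stood high, and the other 3 genotypes overlapped. The log2 change was -0.09 without the array (adjusted p = 0.998) and -1.41 with it (adjusted p = 4.60e-10), a difference of -1.32 ± 0.10 (SE, adjusted p = 6.43e-07). The averaged log2 change, -0.75 ± 0.16 (SE, adjusted p = 0.0236), lost its call without any 1 of flp-17oe egl-6(lof) replicates 2 to 5 (highest adjusted p 0.058) or with a replicate block (adjusted p 0.0517).

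F36D3.1 (V:16499352-16502803) had a similar order of means, 31.2 ± 1.85 CPM in N2, 27.1 ± 1.36 in egl-6(lof), 53.7 ± 2.13 in flp-17oe but 28.5 ± 1.08 in the double strain. Its log2 change was -0.20 without the array and -0.92 with it, a difference of -0.72 ± 0.07 (SE, adjusted p = 3.21e-05), and -0.56 ± 0.09 (SE, adjusted p = 0.00206) on average. In the array strain that lacked the receptor both genes overlapped N2, at 42.2 to 55.5 CPM for F25E5.1 against 41.3 to 54.1 in N2 and 27.5 to 30.1 CPM for F36D3.1 against 28.8 to 33.3.

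The effect of receptor loss differed between the backgrounds for 10 genes (0.0688% of all, 2 more positive and 8 more negative with the array), while 1191 reached an unadjusted p under 0.05. B0511.11 (I:10648600-10654237) passed in both backgrounds with opposite signs. It measured 2.92, 2.79, 1.84, 1.94 and 1.98 CPM in N2 and 3.82, 6.27, 6.3, 6.22 and 5.25 CPM in egl-6(lof), so every mutant library was higher. With the array it measured 8.39, 9.3, 7.25, 7.5 and 8.49 CPM in flp-17oe, against 4.04, 3.05, 3.8, 3.25 and 3.57 CPM in flp-17oe egl-6(lof), so every mutant library was lower. The difference was -2.51 ± 0.22 (SE, adjusted p = 2.74e-06) on the log2 scale, and the averaged change was 0.00. R08E5.3 (V:3772021-3774609) changed by 0.33 and -0.64, a difference of -0.97 ± 0.16 (SE, adjusted p = 0.0146). C17B7.5 (V:3333634-3339076) differed by -1.02 ± 0.19 (SE, adjusted p = 0.0498) and Y73B6BL.44 (IV:6493599-6497411) by 0.66 ± 0.12 (SE, adjusted p = 0.0351). This count also moved, to 406 without egl-6(lof) replicate 1 and to 3 without replicate 3 of every genotype.

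Of 30 gene lists, 15 had at least 1 called member. The share called in each list is to be read beside 1.01% higher and 0.103% lower over all genes. List counts at an unadjusted p under 0.05 are to be read beside 1279 higher and 478 lower of all 14540. The ubiquitin ligase adaptors were the most numerous. Of 230 tested F-box genes, 10 rose and none fell, a share of 4.35% beside 1.01% of all genes, and 175 had a positive change with a median log2 change of 0.19 beside 0.01 for all genes. The 10 are fbxa-192, fbxa-107, fbxc-43 (0.57), fbxb-71 (0.99), fbxc-51, fbxb-35, fbxb-75, fbxb-88, fbxc-24 and fbxb-74, and all but the first 3 and fbxc-51 lay under a mean log2 CPM of 1. The median was 0.10 without the array, where 3 rose, and 0.31 with it, where 22 rose and 1 fell. The list's mean centred log2 CPM was higher in the mutants by 0.31 in batch 1 and by 0.23 in batch 2. The number called was 34 with replicates 3 to 5 alone and 2 without replicate 3 or 5 of each genotype. With single libraries left out it was 5 to 29 (29 without N2 replicate 2), moving by over 1.5 times for 11 of the 20, which were N2 replicates 1, 2, 4 and 5, egl-6(lof) replicate 5, flp-17oe replicates 1, 3 and 5 and the double strain's replicates 3 to 5.

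The products of MATH and BATH genes hold a MATH domain, often with a BTB domain that binds the CUL-3 ubiquitin ligase. Of 58 tested, 5 rose and none fell (8.62%, beside 1.01% of all genes higher). The most even was bath-1 (II:2027612-2028812), at 9.24 to 13.6 CPM in the mutants and 6.35 to 8.98 CPM in the others, a log2 change of 0.46 ± 0.06 (SE, adjusted p = 0.000189). The largest was bath-13 (II:2520842-2522060), at 0.576 to 1.22 and 0.119 to 0.531 CPM, a log2 change of 1.37 ± 0.19 (SE, adjusted p = 0.000338). Neither overlapped between the receptor states. The others were bath-24 at 0.51, bath-10 at 0.63 and bath-21 at 0.52. The median of the list was 0.07, and its mean centred log2 CPM was higher in the mutants by 0.18 in batch 1 and by 0.14 in batch 2. The number called higher was 2 without replicate 3 and 3 without replicate 5 of each genotype, and 5 to 6 with single libraries left out. Without replicate 2, and with replicates 3 to 5 alone, 6 were called higher and 3 lower. Both families hold many near-identical copies, among which counting may divide reads.

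**Figure D3:**
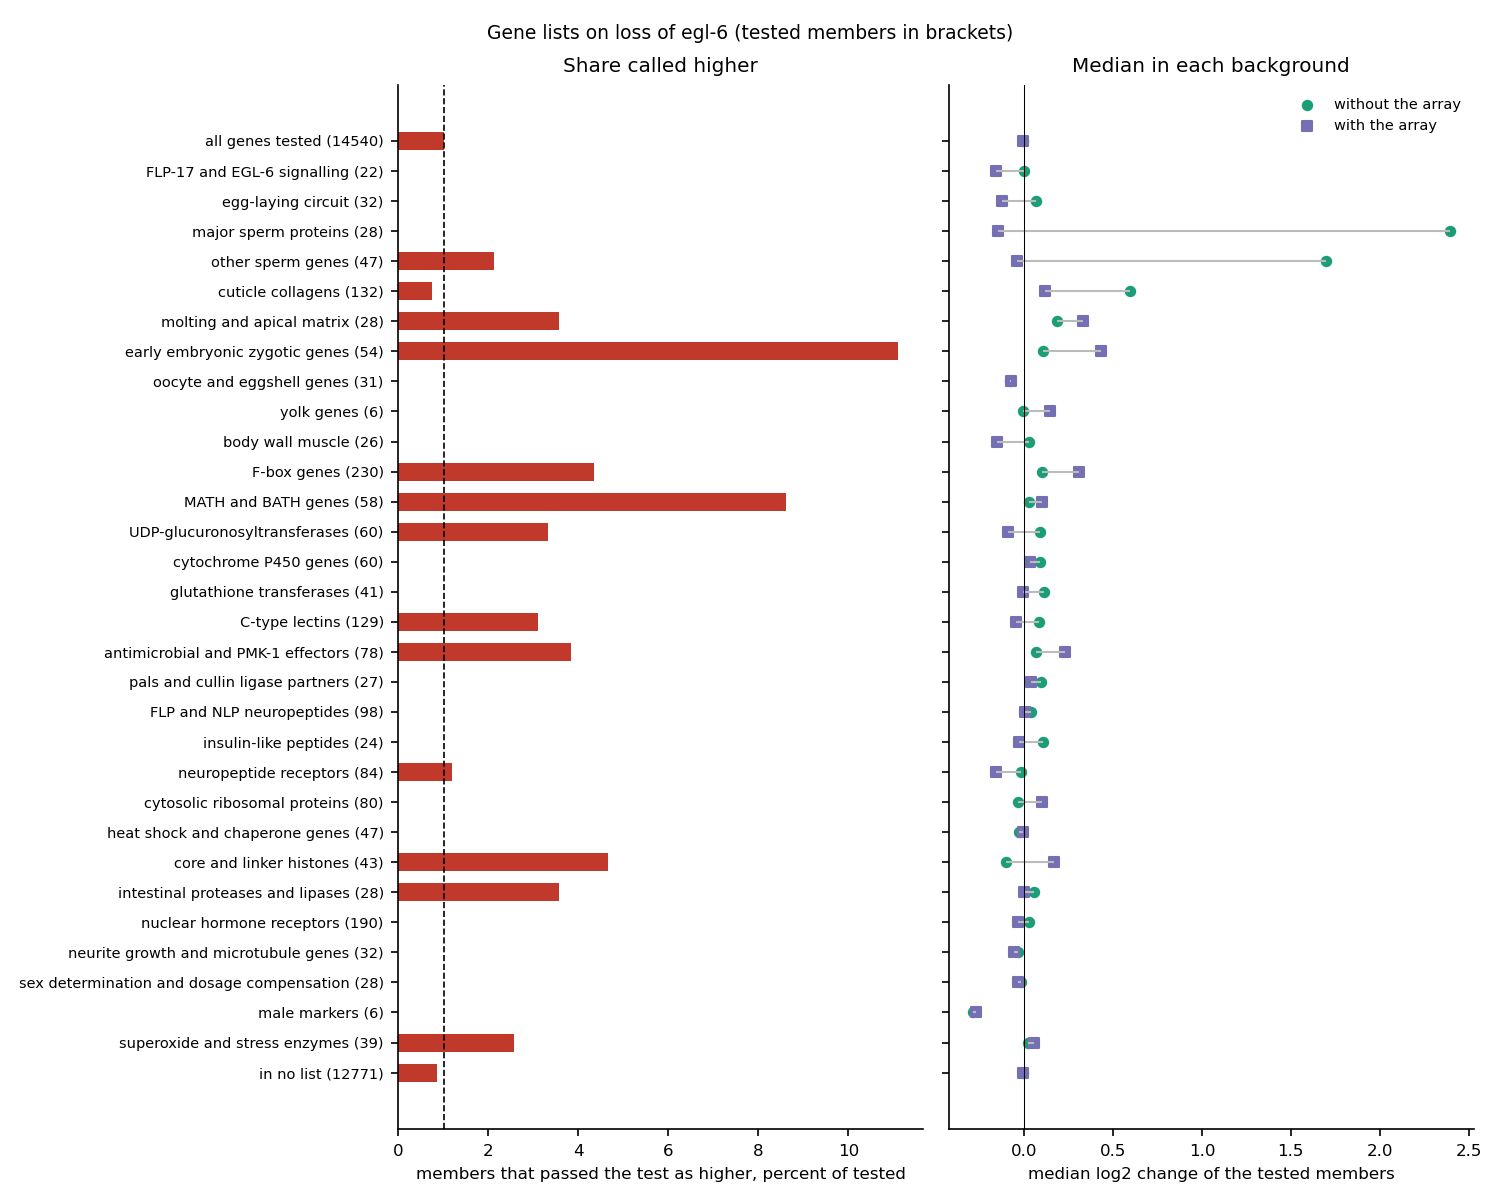
Left, percent of tested members called higher on receptor loss in each of the 30 lists, in all genes and in genes of no list, with a dashed line at 1.01% for all genes. Right, median log2 change of each list without and with the array; the early embryonic list has the longest bar at 11.1%, and the sperm lists have medians of 2.39 and 1.70 without the array beside -0.15 and -0.04 with it.

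Genes first transcribed in the early embryo had the largest share of called members. Of 54 tested, 6 rose and none fell (11.1%, beside 1.01% of all genes higher). An unadjusted p under 0.05 was reached by 27 members that were higher and 0 that were lower. Over all 14540 genes, 1279 were higher and 478 lower at that level. The 6 that rose are pes-8 (0.44), vab-7 (0.81), the homeobox gene for posterior patterning, the very early transcripts vet-1 (0.47), vet-2 (0.30) and vet-6 (0.43), and sdz-28 (0.66), a zygotic gene that depends on SKN-1. vet-2 went from 20.5 ± 2.00 to 25.4 ± 3.61 CPM (SD, n = 10) and pes-8 from 3.31 ± 0.552 to 4.49 ± 0.672 CPM. The median was 0.11 without the array, where 0 passed, and 0.43 with it, where 9 rose. Day 1 adults carry embryos in the uterus, and embryonic and maternal RNA were collected together.

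The list's mean centred log2 CPM was -0.11 ± 0.15 in N2 and 0.02 ± 0.05 in egl-6(lof) (SD, n = 5), and these overlapped. In the array strains it was -0.15 ± 0.16 where the receptor was intact, below 0.24 ± 0.12 where it was lost. Mutant libraries ran from -0.06 to 0.33 and intact ones from -0.42 to 0.12, the lowest being flp-17oe replicate 1. The mutants were higher by 0.24 in batch 1 and 0.26 in batch 2. Without the array the mutant minus intact difference was -0.01 in batch 1 and 0.16 in batch 2, and with the array 0.48 and 0.37. The number of called members was 19 with replicates 3 to 5 alone and 0 without replicate 3 or without replicate 5, and 1 (without flp-17oe replicate 5) to 13 (without N2 replicate 1) with single libraries left out. It moved by over 1.5 times for 12 of the 20 libraries, which were N2 replicates 1, 2, 4 and 5, egl-6(lof) replicate 5, flp-17oe replicates 3 to 5 and the double strain's replicates 2 to 5. The call for vet-1 was lost in 7 of 20 fits without a single library, for vet-2 in 10 and for vab-7 in 2, and for pes-8 in none.

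Transcripts of oocytes and the eggshell went slightly the other way without passing in the fit of all 20 libraries. None of 31 was called by edgeR or DESeq2, an unadjusted p under 0.05 was met by 7 lower and 0 higher members, and the median was -0.07. Only 2 of the 31 had a positive change. The number called lower was 8 without replicate 2, 5 with replicates 3 to 5 alone and 0 without replicate 1, 3, 4 or 5. None of the 6 yolk genes passed by either tool, with 1 higher at an unadjusted p under 0.05. Of 43 histone genes 2 rose (4.65%), and both encode linker histones. They are his-24 (X:14490094-14491119), by a log2 change of 0.79 ± 0.14 (SE, adjusted p = 0.00816), and hil-3, by 0.42. Their levels went from 27.3 ± 7.2 to 47.7 ± 12.6 CPM and from 11.2 ± 1.92 to 15.3 ± 3.75 CPM, and hil-3 lost its call in 16 of 20 fits without a single library and with a replicate block (adjusted p 0.0681). None of 28 genes of sex determination and dosage compensation passed under either tool or at an unadjusted p under 0.05.

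**Figure D4:**
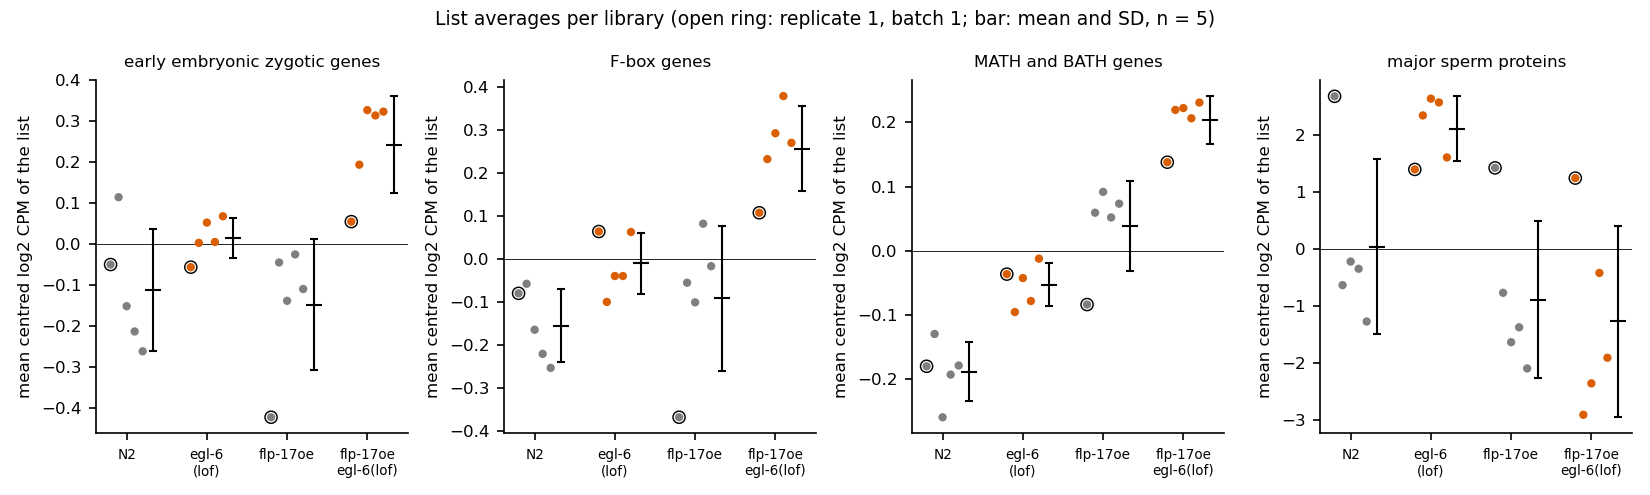
Mean centred log2 CPM of the members of 4 lists in each library (early embryonic, F-box, MATH and BATH, and major sperm protein genes), by genotype, with replicate 1 as open rings and receptor mutants in orange. The first 3 lists are highest in flp-17oe egl-6(lof); the sperm list is high in egl-6(lof) at 2.11 and spreads from -1.27 to 2.68 in N2.

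Sperm transcripts varied most among the lists and with batch. In N2 the major sperm protein list stood at 2.68 in replicate 1 and between -1.27 and -0.22 in replicates 2 to 5. In egl-6(lof) it stood at 1.40 to 2.64. Without the array the difference of mutant minus intact was -1.28 in batch 1 and 2.90 in batch 2, and the comparison without the array called 14 of the 28 genes higher against 0 with the array. On average over both backgrounds none of the 28 passed by edgeR, DESeq2 called 1 higher, and an unadjusted p under 0.05 was met by 24, all higher. Without replicate 1, 18 passed. Of 47 other sperm genes 1 was called (2.13%, beside 1.01% of all genes higher). It was spe-41 (III:3439011-3444210), which encodes the sperm TRPC channel needed at fertilization, at 0.63 ± 0.08 (SE, adjusted p = 9.95e-05). It rose from 3.58 ± 0.592 to 5.52 ± 0.69 CPM and kept its call in each fit that left out a single library or replicate number. In a wider list of 12 male markers 6 were tested, and none passed under edgeR or DESeq2, with 2 lower at an unadjusted p under 0.05. The part of sperm content in the other results was not tested.

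Cuticle genes were also uneven. Of 132 collagens, col-113 (0.67) was the only one called (0.758%, below the 1.01% of all genes). An unadjusted p under 0.05 was met by 26 higher and 1 lower, and 112 had a positive change with a median of 0.41. DESeq2 called 7, a replicate block 3 and replicates 3 to 5 alone 17, and the count moved by over 1.5 times, to between 0 and 4, with each of the 20 libraries left out in turn. The list's mean centred log2 CPM was higher in the mutants without the array, by 0.67 in batch 1 and 0.82 in batch 2, while with the array the differences were -0.15 and 0.13. The call for col-113 was lost in 15 of 20 fits without a single library. Of 28 genes of molting and apical matrix 1 was called (3.57%). It was hch-1 (X:14696411-14699977), an astacin protease needed for hatching, which rose by 1.52 ± 0.30 (SE, adjusted p = 0.0129) at a mean log2 CPM of -0.04. None of 26 body wall muscle genes passed under either tool, with 1 higher at an unadjusted p under 0.05.

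Genes of defence against microbes contributed 7 rises and no fall. Of 129 C-type lectins, 4 rose (3.10%). They are clec-266 (X:6617393-6622915) with a log2 change of 0.87 ± 0.16 (SE, adjusted p = 0.00952), clec-196 with 1.01, clec-85 with 0.29 and clec-67 with 0.40. clec-266 went from 5.85 ± 1.9 to 10.7 ± 1.88 CPM and clec-85, the most abundant of the 4, from 18.5 ± 3.81 to 22.9 ± 5.02 CPM. Of 78 antimicrobial and PMK-1 effectors, C32H11.4 (0.69), T24B8.5 (0.58) and irg-5 (0.43) rose (3.85%), the last 2 being known targets of the p38 MAP kinase pathway. No member of either list was called lower. The mean centred log2 CPM of the lectin list differed between mutants and intact libraries by -0.45 in batch 1 and by 0.24 in batch 2. Both lists had 0 called members without replicate 3, 4 or 5, and leaving out a single library ended the call for T24B8.5 in 14 of 20 cases, irg-5 in 15, clec-67 in 11 and clec-196 in 1 (flp-17oe replicate 5). With a replicate block 1 of the 3 effectors, C32H11.4, was called, and T24B8.5 and irg-5 had adjusted p of 0.0535 and 0.0534. None of 27 pals genes and cullin ligase partners of the intracellular pathogen response passed under either tool, with 3 higher at an unadjusted p under 0.05.

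Among detoxification genes, ugt-64 and ugt-53 (0.38, lost in 13 of 20 fits without a single library and, at an adjusted p of 0.0577, with a replicate block) were called of 60 UDP-glucuronosyltransferases (3.33%), with a list median of 0.00. None of 60 cytochrome P450 genes passed by edgeR, with 13 higher and 2 lower at an unadjusted p under 0.05 and 1 higher by DESeq2. None of 41 glutathione transferases passed by either tool, with 3 higher at an unadjusted p under 0.05. Of 39 stress enzymes 1 was called (2.56%), the metallothionein gene mtl-1, which rose by 1.12 ± 0.23 (SE, adjusted p = 0.0196). Its call held in every fit without a single library except that without flp-17oe replicate 5 (adjusted p 0.0622). Of 28 intestinal proteases and lipases 1 was called (3.57%). It was asp-17 (V:19035723-19037322), an aspartyl protease gene, which rose by 0.71 ± 0.11 (SE, adjusted p = 0.00181), from 2.49 ± 0.426 to 4.14 ± 1.06 CPM.

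In the nervous system lists, 1 of 84 neuropeptide receptors rose and 1 fell (1.19% each), beside 1.01% and 0.103% of all genes. The one that fell was egl-6. The one that rose was pdfr-1 (III:6632837-6652083), the receptor for pigment-dispersing factor peptides that act in locomotion and arousal. It measured 4.34 at the lowest, 6.1 at the median and 7.5 at the highest CPM in the intact libraries and 6.79 at the lowest, 7.73 at the median and 10.1 at the highest CPM in the mutants. The log2 change was 0.44 ± 0.07 (SE, adjusted p = 0.00185), with 0.56 without the array and 0.32 with it. None of 98 FLP and NLP neuropeptide genes passed under either tool, with 4 higher and 3 lower at an unadjusted p under 0.05. None of 24 insulin-like peptide genes passed under either tool, with 1 in each direction at that level.

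No call was made by edgeR among 80 cytosolic ribosomal protein genes, 47 heat shock and chaperone genes or 190 nuclear hormone receptors. At an unadjusted p under 0.05 these had 0, 3 and 10 members, and DESeq2 called 0, 1 and 0. Of the ribosomal genes, 69 of 80 had an averaged change above 0, at a median log2 change of 0.04, which was -0.03 without the array and 0.10 with it. Only 14 of the 80 had the same sign in each background. The list's mean centred log2 CPM was higher in the mutants by 0.24 in batch 1 and by 0.000545 in batch 2. With the array these differences were 0.46 and 0.03, and without it 0.02 and -0.03. Genes of no list numbered 12771, with 109 higher (0.853%) and 13 lower, so 122 of the 162 called genes belonged to none of the 30 lists.

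Called genes were found on all 6 chromosomes, at 0.661% of tested genes on III, 1.02% on I, 1.08% on IV, 1.15% on V, 1.17% on X and 1.53% on II. Within 2 Mb of egl-6 on X, 11 of 527 genes passed (2.09%, 7 higher and 4 lower, egl-6 not counted), beside 13 of 1605 on the rest of X. The share was 2.55% within 1 Mb and 1.37% within 5 Mb. The nearest called genes were T22B7.7, T22B7.3 and srv-7 on one side, from 280 kb, and C14F11.6, got-2.2 and W05H9.1 on the other, from 306 kb. The 5 called falls on X, egl-6, srv-7, got-2.2, pdi-6 and sur-5, all lay within 2 Mb of egl-6.

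**Figure D5:**
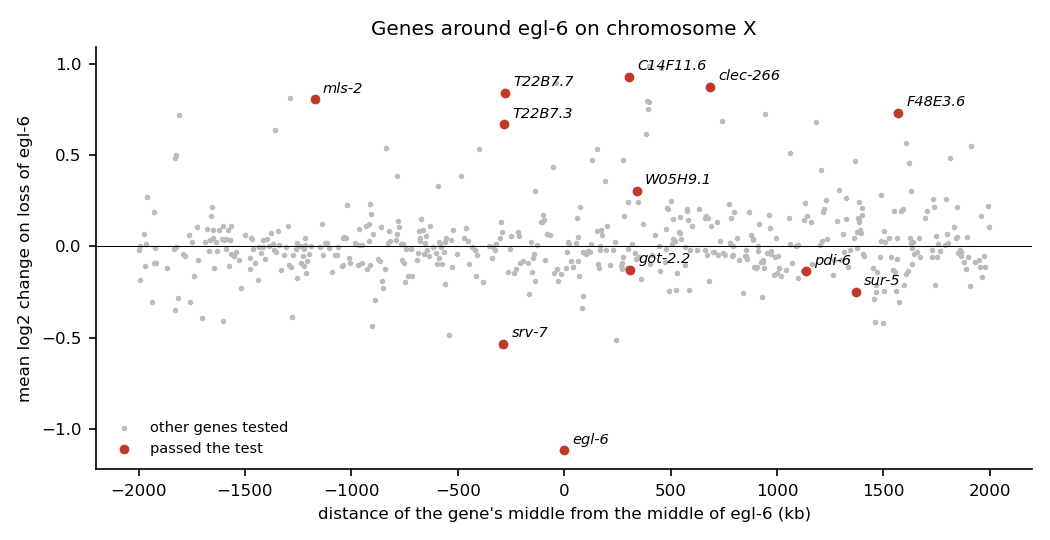
Averaged log2 change on receptor loss of the genes tested within 2 Mb of egl-6, against distance from egl-6 in kb, with called genes labelled. The 7 rises and 4 falls besides egl-6 are scattered on both sides, the nearest at about 280 kb.

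Away from egl-6, 2 stretches of 1 Mb held the most calls. From 2 to 3 Mb on chromosome II, 11 of 146 tested genes passed, beside 1.53% over the whole of that chromosome. They are bath-1, bath-13, bath-21, bath-24, fbxb-35 and sdz-28, together with B0281.5, C40A11.2, C40A11.4, C40A11.8 and Y59C2A.3. From 17 to 18 Mb on chromosome V, 8 of 62 passed, beside 1.15% over the whole of that chromosome. They are fbxa-192 and C38D9.2 with C18D4.6, F40D4.13, F47H4.2, K10G4.5, Y68A4A.13 and Y6G8.2. All 19 rose. The stretches were picked for their counts, and neighbouring members of 1 family may share reads.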

How the data were processed

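The values are the authors' raw counts, deposited as 1 table of genes by libraries without normalization, as the labels say and its whole numbers show. Reads were aligned with STAR 2.7.11b to ce11, per the submitters' processing notes; how reads were assigned to genes, and whether by strand, is not given in the sources used here. Each column was matched to its sample by name. Of 42532 gene names, 40181 matched the Ensembl 115 annotation of the same assembly by symbol, 2260 through RefSeq names, and 91 stayed unmatched.

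Genes were kept by filterByExpr by genotype (minimum count 10, minimum total 15), and 14540 remained. CPM and log2 CPM (prior count 2) per library were computed from the deposited counts with TMM factors taken over all 25 libraries. Those factors ran from 0.981 to 1.05 in the 20 libraries compared. The fits used TMM factors taken over the 20 libraries alone. A negative binomial model with terms for batch, array and egl-6 loss was fitted to the 20 libraries with edgeR 4.0.16 (robust quasi-likelihood, in R 4.3.3, with limma 3.58.1). Values for each background and their difference came from a model with a term per genotype and batch. Calls are Benjamini-Hochberg adjusted p under 0.05 over all genes tested. The labels do not say that replicates were separate cultures, so p-values measure the spread between these samples. Any 2 replicates of a genotype differed by a chi-square of at least 8.74 per gene, so none was a duplicate. The procedure was also run on simulated counts drawn independently per library, with no batch, array or replicate effect. Those counts cannot test the effect of batch or of shared replicate number seen in the real libraries.

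The comparison, the 30 lists and the genes named were chosen with earlier results of these data known. Named genes are flp-17, egl-6, the 12 largest rises and falls among called genes at or above 1 in mean log2 CPM with the same sign in each background, up to 4 called members per list, and up to 4 differences between backgrounds per direction. A list score is the mean log2 CPM of its members after centring each gene over libraries.

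Libraries with the same replicate number were compared as deviations from the mean of their genotype. Between the 2 array strains they correlated at 0.577, 0.172, 0.258, 0.135 and 0.349, all over 0.1. Between N2 and egl-6(lof) the correlations ran from -0.412 to 0.386 and were of mixed sign. The main fits had a batch term and no replicate block, so their counts do not use this pairing of the array strains. Pairing entered only in the alternatives with a replicate block. Alternatives were DESeq2-type size factors, DESeq2 1.42.0, no count filter, a stricter filter, no batch term, a replicate block, batch 2 alone, a term per genotype, all 25 libraries, each background alone, and leaving out each replicate number or library.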

Additional observations from a re-analysis of the deposited data

Results flagged for a closer look

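In 9 of 216 gene-by-genotype groups of 5 libraries, 1 library lay far from the other 4 by Dixon's criterion, which chance gives in about 1 in 20 groups. In egl-6(lof) replicate 1, zip-8 stood at 3.77 CPM, clec-85 at 15.5, T24B8.5 at 2.02 and asp-17 at 2.88. In egl-6(lof) replicate 5, vet-1 stood at 10.7 CPM. In flp-17oe replicate 1, F28F8.7 stood at 12.5 CPM, clec-67 at 4.17 and pdfr-1 at 6.44. In flp-17oe replicate 3, spe-41 stood at 4.81 CPM. Of these, zip-8, F28F8.7, spe-41 and vet-1 were above the rest of their genotype, and clec-85, T24B8.5, asp-17, clec-67 and pdfr-1 were below. Replicate 1 is the only library of batch 1 in each genotype, and 7 of the 9 values come from it.

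The effect of receptor loss differed between the backgrounds, by the test of the difference itself, for 6 named genes. With the array minus without it, the log2 change differed by -1.32 for F25E5.1, -0.72 for F36D3.1, -2.51 for B0511.11, -1.02 for C17B7.5, -0.97 for R08E5.3 and 0.66 for Y73B6BL.44. B0511.11 was the one gene that passed in both backgrounds with opposite signs.

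The flp-17(lof) libraries, which no comparison above uses, were set against the same N2 libraries. Of 14540 genes tested, 11 passed in flp-17(lof) minus N2. Of these 11, 4 were among the 162 called on receptor loss, namely ugt-64, fbxa-192, F36D3.1 and C07G3.8. Among the named genes 4 passed, of which flp-17 is the mutated one (a log2 change of -3.92, adjusted p = 9.98e-15). Relative to N2, ugt-64 was higher by a log2 change of 1.71 (79.3 ± 3.7 CPM, SD, n = 5, adjusted p = 5.62e-10) and fbxa-192 by 1.30 (28.1 ± 5.42 CPM, adjusted p = 9.17e-09). F36D3.1 was higher by 0.55 (45.9 ± 6.64 CPM, adjusted p = 0.000102), opposite in sign to its averaged change on receptor loss. C07G3.8, which was picked out after its values were seen, was higher by 2.42 (adjusted p = 0.00369). The comparison of flp-17(lof) and that of egl-6(lof) share the N2 libraries. In flp-17(lof) replicate 1 the total was 25164923 counts, the TMM factor 0.739 and the rRNA share 9.50%, all outside the ranges of the 20 libraries compared. The part of that library in these values was not tested.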

How the results depend on the processing

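The averaged count, 162, went to 316 with DESeq2, 628 in batch 2 alone, and, in alternatives chosen after seeing the data, 1128 with replicates 3 to 5 only and 0 with replicates 1 and 2 only. It was 26 to 642 without 1 replicate number, and 90 to 315 without 1 library (315 without N2 replicate 1, 313 without egl-6(lof) replicate 1, 275 without N2 replicate 2, 102 without N2 replicate 4, 1 more without N2 replicate 5, and 93 and 90 without flp-17oe replicates 3 and 5). It kept within 1.5 times under DESeq2-type size factors (159), no count filter (127), the stricter filter (162), no batch term (118), a term for each genotype (234) and all 25 libraries (213).

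The count without the array, 108, was 380 with DESeq2, 46 with no count filter, 35 with no batch term, 607 in batch 2, 71 with all 25 libraries, 39 in its own 10 libraries, 17 there with a replicate block, 636 with replicates 3 to 5 and 0 with replicates 1 and 2. It was 14 to 607 without 1 replicate number and 35 to 735 without 1 library, and moved by over 1.5 times for every library left out except flp-17oe egl-6(lof) replicates 2 (96) and 4 (108). The count with the array, 228, was 404 with DESeq2, 125 in its own 10 libraries, 27 there with a replicate block and 0 with replicates 1 and 2. It was 20 to 304 without 1 replicate number and 81 to 296 without 1 library (81, 124, 126 and 150 without flp-17oe replicates 3, 1, 5 and 4, 109 and 140 without flp-17oe egl-6(lof) replicates 3 and 2). The count of differences, 10, was 52 with DESeq2, 118 in batch 2, 18 with replicates 3 to 5, 0 with replicates 1 and 2, 3 to 118 without 1 replicate number and 6 to 406 without 1 library. With replicates 1 and 2 alone, edgeR found 170, 196, 656 and 736 genes at an unadjusted p under 0.05 in these 4 comparisons. The causes were not tested.

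With the replicate block in place of batch in all 20 libraries, the counts were 167 averaged, 48 without the array, 274 with it and 8 for the difference, and 140 of the 162 averaged calls were shared. The block within each background's own 10 libraries was also chosen after seeing the data.

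All 162 called genes had the same sign in each alternative in which they were tested. Of the 49 named called genes, 12 lost the call only with replicates 1 and 2 alone, namely egl-6, sax-2, fbxa-192, ugt-64, fbxa-107, Y102A5C.36, F56B3.2, F28F8.7, F36D3.1, spe-41, bath-1 and bath-13. The others lost it in at least 1 further alternative, and none reversed. Low depth limits the precision for genes with few counts, and 63 of the called genes lay below a mean log2 CPM of 1.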

Other observations

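Among the 122 called genes that belong to none of the lists, several are known from embryos and were picked out after their values were seen, so they give no count or test. Transcription factor genes that act in developmental cell fate rose at low levels, with log2 changes of 0.52 for ceh-43, 0.74 for tbx-8, 0.89 for unc-39 and 0.81 for mls-2 (adjusted p = 0.00206, 0.0308, 0.0428 and 0.029). The genes sepa-1 and epg-2, whose products take part in clearing maternal P granule proteins from embryonic somatic cells by autophagy, rose by 0.54 and 0.71 (adjusted p = 0.0165 and 0.0288). With the array the log2 changes of these 2 were 0.85 and 1.01, and without it 0.23 and 0.42; their difference between the backgrounds did not pass (adjusted p = 0.339 and 0.612).

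Other rises outside the lists included cht-1, a chitinase gene, by 0.78 (adjusted p = 0.0026), cav-1, which encodes a caveolin, by 0.60 (adjusted p = 0.01), and jmjd-3.2, of the JmjC histone demethylase family, by 0.87 (adjusted p = 0.00757). Each had the same sign in both backgrounds, with 0.53 and 1.03 for cht-1, 0.34 and 0.86 for cav-1, and 0.59 and 1.15 for jmjd-3.2 without and with the array.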
